A study of Caenorhabditis elegans with 8 samples.

Results

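The genes described here encode the nuclear hormone receptors of the nematode Caenorhabditis elegans. They were taken as every gene whose RefSeq symbol is nhr followed by a number, with 10 or more counts in at least 4 of the 8 libraries. Of the 282 genes with such a symbol that were considered, 177 met the count minimum, out of 46928 genes in the whole table, and 1 further gene of the family was left out beforehand. The 177 genes comprised 172 annotated as protein coding and 5 annotated as pseudogenes.

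Whole animals of the wild-type strain N2 were sequenced for RNA, with 4 populations exposed to 50 μM urolithin A (UA), a compound that gut bacteria make from plant ellagitannins, and 4 control populations grown in parallel without UA. Both groups were the same strain without a transgene or mutation, were fed Escherichia coli OP50, and differed by UA alone as far as the labels say. Each library pooled many animals of 1 population harvested on its own. The series description gives treatment up to day 4 of adulthood, whereas the methods give a harvest at day 1, and the age of the animals is therefore not settled here.

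Nuclear hormone receptors are transcription factors that bind DNA through a zinc-finger domain and, in many cases, a small lipophilic ligand through a second domain. The family is much larger in nematodes than in insects or vertebrates, chiefly through repeated duplication of a gene related to vertebrate HNF4, and most of the duplicated copies lie on chromosome V. In C. elegans, members with a known function act in molting and development, in fat storage and desaturation, in vitamin B12-dependent propionate and methionine metabolism, and in the response to toxins, pathogens and starvation, many of them in the intestine.

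Library totals lay between 41890058 and 43055719 counts. On the first principal component of all genes, with 34.1% of the variance, replicates 1 and 2 of both conditions stood apart from replicates 3 and 4, and the labels do not say what these 2 replicate sets share. Marker genes of the intestine, oocyte, embryo, muscle, hypodermis and neurons were detected. Of the 5 sperm markers, ssp-10 and spe-11 had counts in all 8 libraries, msp-19 in 1, and msp-3 and msp-113 in none. In whole animals, a change in the number of cells of a type and a change in RNA per cell cannot be told apart.

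Receptor transcripts were a small and steady part of the libraries. They took 0.1349%, 0.1334%, 0.136% and 0.1341% of the counts in UA replicates 1 to 4, and 0.1276%, 0.1292%, 0.1238% and 0.1306% in control replicates 1 to 4, so that every UA share lay above every control share. Scaled by TMM, the summed level was 1313.7, 1322.9, 1369.3 and 1362.8 CPM, which are counts scaled to an equal library total, in the UA libraries and 1259.4, 1254, 1284.6 and 1333.3 CPM in the control libraries. On this scale the groups overlapped, and the UA library was the higher in each of the 4 replicate numbers.

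Per kilobase of exon (RPKM), which allows levels of different genes to be compared, the receptor genes had a median of 1.91 RPKM with quartiles at 0.891 and 4.34 RPKM, against a median of 8.06 RPKM over all genes tested. The lowest level was 0.123 RPKM, 49 receptor genes were under 1 RPKM and 16 were over 10 RPKM. The 10 most abundant held 41.6% of the summed receptor CPM. They were, from the highest, nhr-274 at 35.8 RPKM, nhr-86 at 34.7, nhr-66 at 27.4, nhr-46 at 27.3, nhr-23 at 24.5, nhr-71 at 21.4, nhr-20 at 17.4, nhr-10 at 16.2, nhr-97 at 15.2 and nhr-2 at 14.9 RPKM, as means of 8 libraries. In this order the ranges over libraries of neighbouring genes overlapped, except between nhr-86 and nhr-66 and between nhr-46 and nhr-23.

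The comparison of UA with control animals asks which receptor genes changed in transcript level under the compound. Each gene was compared by edgeR's quasi-likelihood test over all 13720 genes that passed the filter on low counts, among them each of the 177 receptor genes but nhr-101. Genes were called at the thresholds of the study's methods, an unadjusted p under 0.05 together with a change of more than 1.2-fold, and adjusted p-values (Benjamini-Hochberg over all genes tested) are given beside them.

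With UA, 24 receptor genes rose and 1 fell. The risers were 13.6% of the receptor genes tested, against 4.12% of all genes tested, and the 1 that fell was 0.568%, against 1.55% of all genes. Called in either direction were 25, or 14.2%, against 5.67% of all genes. The rises were modest, from 1.25-fold to 2.34-fold with a median of 1.48-fold, and the genes that rose were of low to middle abundance, with control means of 0.4 to 15.1 CPM. By edgeR no receptor gene passed an adjusted p under 0.05, which 0.0948% of all genes did, and the lowest adjusted p among them was 0.175. At an unadjusted p under 0.05 with no minimum fold, edgeR gave 26 receptor genes, 14.8% against 7.25% of all genes. DESeq2 called 22 as higher, 12.5% against 4.17% of all genes, and none as lower, against 1.47%. It placed 3 at an adjusted p under 0.05, nhr-178, nhr-232 and nhr-130, 1.7% against 1.23% of all genes. Without UA replicate 2 the count was 14, all higher and none lower, against 3.83% and 1.52% of all genes in that fit.

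Over all the receptor genes tested, most changes pointed up. The log2 fold change lay above 0 for 131 of the receptor genes tested, 74.4% against 48.9% of all genes tested. Its median was 0.14 with quartiles at -0.0027 and 0.32, whereas the median over all genes was -0.003. The share of all genes above 0 varied with level, and only 14 receptor genes had a mean of 20 CPM or more. There 5 of 14 lay above 0, against 36.9% of all genes. From 5 to under 20 CPM it was 38 of 41, against 64.6%. From 1 to under 5 CPM it was 65 of 86, against 58.8%, and under 1 CPM 23 of 35, against 52.0%. The 4 UA values lay above the 4 control values for 13 receptor genes, 7.39% against 3.06% of all genes, and below them for 3, 1.7% against 1.72%. Without control replicate 4, with 1 library fewer to overlap, these counts were 30 and 4, against 5.86% and 4.36% of all genes. UA was the higher in all 4 replicate numbers for 49 receptor genes, 27.8% against 10.6%, and in none for 10, 5.68% against 9.94%.

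**Figure D1:**
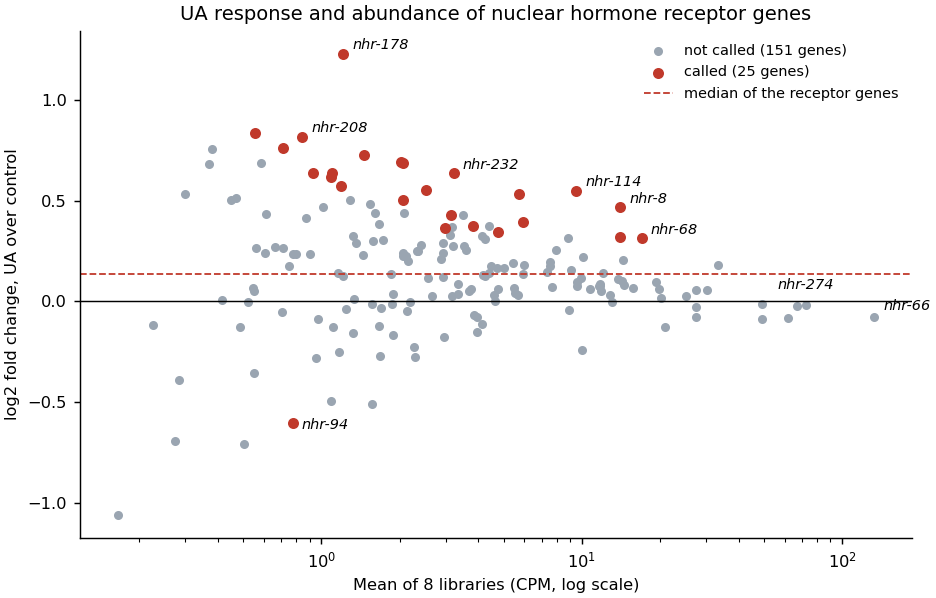
UA response and abundance of the nuclear hormone receptor genes tested. Each point is a gene, with the mean CPM of the 8 libraries on the horizontal log scale and the log2 fold change of UA over control on the vertical axis. Red points are the 25 genes called, and the dashed line is the median of the receptor genes, 0.14. The red points lie above 0 except nhr-94, and none lies at a mean of 20 CPM or more.

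The largest rise was that of nhr-178, a receptor gene at position 1603906 to 1607953 of chromosome V in WBcel235, on the minus strand, with 9 annotated exons. It had 2.07, 1.64, 1.66 and 1.44 CPM in UA replicates 1 to 4, against 0.744, 0.955, 0.434 and 0.769 CPM in control replicates 1 to 4. Every UA library was thus above every control library. The mean was 1.70 ± 0.26 CPM with UA and 0.725 ± 0.216 CPM in control animals (SD, n = 4 each), a log2 fold change of 1.23 with a standard error of 0.25 (edgeR adjusted p = 0.175). By DESeq2 the adjusted p was 0.0045, and with the replicate number as a block in edgeR it was 0.0833. The exons of nhr-178 overlap those of F16B4.2 on the other strand. The methods describe stranded libraries, but the use of strand in the counting is not stated. Whether reads of the shared stretch were assigned to the right gene is therefore not known.

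The 5 genes next in order of p were nhr-232, nhr-50, nhr-132, nhr-208 and nhr-130, all on chromosome V. nhr-232 had 3.94, 4.18, 4.16 and 3.41 CPM with UA and 2.12, 2.57, 2.84 and 2.55 CPM in control libraries, a log2 fold change of 0.64 ± 0.15 (SE, edgeR adjusted p = 0.233). nhr-50 had 3.16, 3.02, 2.77 and 3.03 CPM with UA and 2.23, 1.96, 1.88 and 2.09 CPM in control libraries, a log2 fold change of 0.55 ± 0.14. In both genes the groups were well apart, with the lowest UA library above the highest control library. Each overlaps a gene of the other strand on exons, sri-18 for nhr-232 and C06C6.8 for nhr-50.

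nhr-132 had 2.46, 2.81, 2.36 and 2.32 CPM with UA and 1.14, 1.41, 1.78 and 1.83 CPM in control libraries, with controls 3 and 4 the higher among the controls. nhr-208 had 0.865, 1.15, 1.2 and 1.09 CPM with UA and 0.512, 0.728, 0.675 and 0.529 CPM in control libraries. nhr-130 had 7.10, 7.31, 6.30 and 6.41 CPM with UA and 4.56, 4.14, 4.14 and 5.94 CPM in control libraries. None of these 3 genes overlapped between the groups, although control replicate 4 came close to the UA libraries for nhr-130. Their log2 fold changes were 0.69 for nhr-132, 0.81 for nhr-208 and 0.53 for nhr-130, and their edgeR adjusted p-values were 0.33, 0.33 and 0.333.

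Among the other risers, nhr-195, nhr-231, nhr-65, nhr-170, nhr-228 and nhr-134 also had all 4 UA values above all 4 control values, which made 12 of the 24 risers. nhr-231 rose 1.78-fold at the low level of 0.715 ± 0.14 CPM with UA and 0.400 ± 0.114 CPM in control libraries (SD, n = 4 each). For nhr-65 the 4 UA libraries spanned only 4.17 to 4.50 CPM, against 3.07 to 3.84 CPM in the controls, a 1.30-fold rise. The distance between groups was thus set by the small spread within them rather than by a large fold change. nhr-170 had 2.09, 3.58, 2.12 and 2.32 CPM with UA and 1.93, 1.23, 1.28 and 1.85 CPM in control libraries, so that UA replicate 2 stood well above the other UA libraries.

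In the remaining 12 risers the groups overlapped in at least 1 library. They were nhr-211, nhr-153, nhr-16, nhr-8, nhr-142, nhr-35, nhr-79, nhr-114, nhr-275, nhr-68, nhr-143 and nhr-139, with log2 fold changes of 0.32 for nhr-35 and nhr-68 up to 0.76 for nhr-139. Of the 24 risers, 20 were higher with UA in all 4 replicate numbers, and the exceptions, at 3 of 4, were nhr-16, nhr-142, nhr-275 and nhr-143. The 1 receptor gene that fell, nhr-94, had 0.592, 0.531, 0.866 and 0.473 CPM with UA and 0.977, 0.682, 1.01 and 1.08 CPM in control libraries. UA replicate 3 reached above control replicate 2, and the log2 fold change was -0.61 ± 0.26 (SE, edgeR adjusted p = 0.673).

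**Figure D2:**
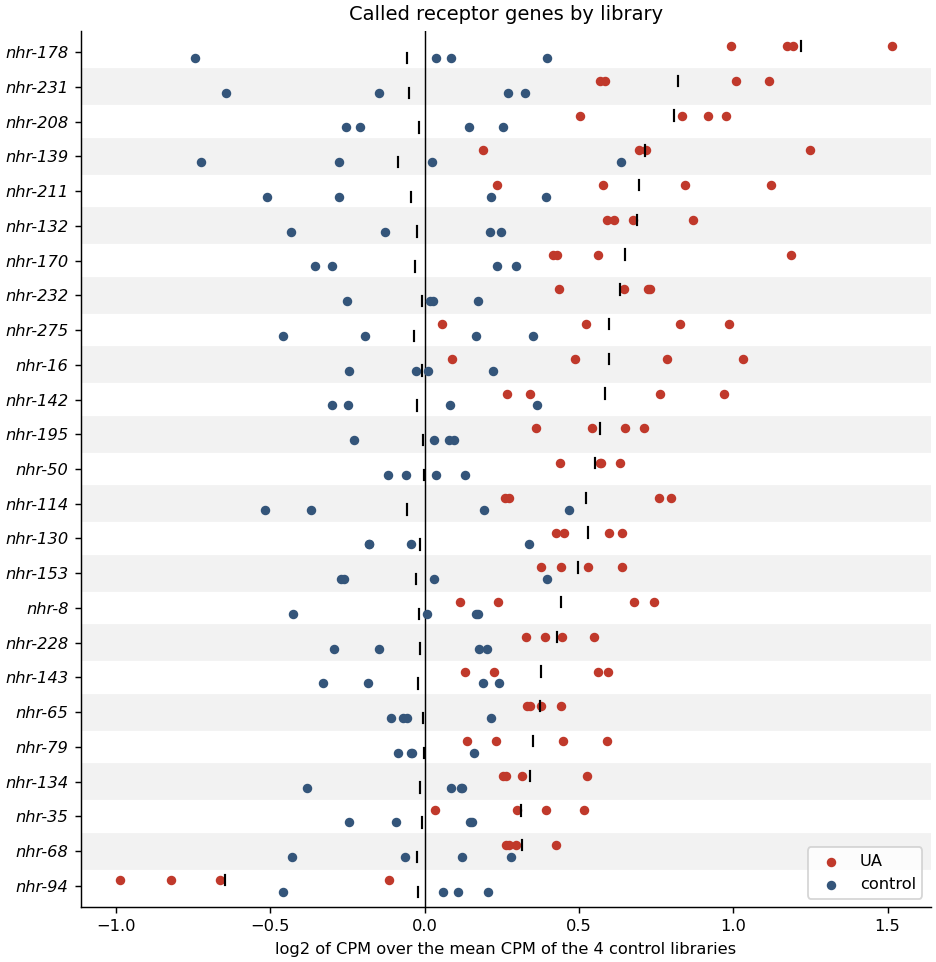
The 25 called receptor genes by library. Each row is a gene, ordered by its change, each point is 1 library as log2 of its CPM over the mean CPM of the 4 control libraries, and the black tick is the mean of the 4 points of a condition; UA libraries are red and drawn above the control libraries in blue. In 12 of the 24 genes that rose, the red points all lie to the right of the blue points. Of these 12 genes nhr-178 is the highest row and nhr-134 the lowest, with genes that overlap in rows between them.

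How far a call rests on single libraries was read from 8 fits, each without 1 library. nhr-178, nhr-232, nhr-50, nhr-132, nhr-208, nhr-130, nhr-195, nhr-231 and nhr-65 were called in all 8, that is 9 of the 25 genes. In contrast, 7 were called in 3 or fewer, namely nhr-35, nhr-79, nhr-275, nhr-134, nhr-68, nhr-139 and nhr-94. With the replicate number as a block, 26 rose, 14.8% against 5.5% of all genes, and 2 fell, 1.14% against 2.47%. With and without the block, 23 genes were called. The block ended the calls of nhr-275 and nhr-134, and brought in nhr-62, nhr-121, nhr-45 and nhr-58 as higher and nhr-67 as lower. No receptor gene passed an adjusted p under 0.05 with the block either, against 0.838% of all genes, and the lowest was 0.0682 for nhr-114.

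The receptors with a known role were examined as 4 lists with 26 genes in all, of which 24 were tested and 3 were called, nhr-8, nhr-68 and nhr-114, where 5.67% of all genes tested were called. The lists were drawn up with earlier results of these data known. The median log2 fold change of the 24 receptor genes was 0.021. The other 152 receptor genes tested, for most of which no function is known, had 22 called and a median of 0.16.

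The conserved receptors have orthologs in insects and vertebrates. Of these 11 genes 9 were tested and 1 rose, and 2, nhr-111 and nhr-239, were under the count minimum. The gene that rose was nhr-8, a relative of the dafachronic acid receptor DAF-12 that acts in xenobiotic resistance and cholesterol balance. It had 18.8, 19.7, 12.7 and 13.9 CPM with UA and 13.3, 13.2, 11.8 and 8.75 CPM in control libraries. Values were higher in replicates 1 and 2 of either condition, so that UA replicate 3 lay below control replicates 1 and 2 while UA was higher in each of the 4 numbers. The log2 fold change was 0.47 ± 0.18 (SE, edgeR adjusted p = 0.569, and 0.12 with the block). nhr-8 overlaps the exons of F33D4.6 on the other strand.

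nhr-23, the counterpart of the ROR receptors and a regulator of molting, was the most abundant conserved receptor per kilobase, at 24.5 RPKM against 8.36 RPKM for nhr-48, the next. It had 61.5, 62.2, 57.1 and 59.2 CPM with UA and 64.8, 62.7, 64.6 and 62.3 CPM in control libraries. Although every UA value was below every control value, the difference was small, with a log2 fold change of -0.08 ± 0.04 (SE, edgeR adjusted p = 0.744), and it was not called. nhr-67, the tailless ortholog that acts in neuronal and anchor cell development, was near the limit of detection at 0.501, 0.185, 0.505 and 0.331 CPM with UA and 0.698, 0.546, 0.675 and 0.577 CPM in control libraries. Its log2 fold change of -0.71 ± 0.32 missed the threshold on the unadjusted p (edgeR adjusted p = 0.695) and passed it with the block.

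The other conserved receptors gave no call. nhr-48, another relative of DAF-12, spanned 26.3 to 29.1 CPM with UA and 24.3 to 28.7 CPM in control libraries. nhr-41 (TR2/TR4), nhr-6 (the NR4A ortholog, which acts in the spermatheca), nhr-25 (NR5A, which acts in the epidermis and gonad), nhr-91 (GCNF) and nhr-85 (Rev-erb and E75) had means between 0.38 and 2.55 RPKM and log2 fold changes between -0.28 and 0.04. The groups overlapped in each of these 6 genes.

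None of the 6 receptors of fat metabolism was called, and their median log2 fold change was 0.043. nhr-66 had 124, 124, 135 and 132 CPM with UA and 132, 133, 142 and 138 CPM in control libraries, lower with UA in each replicate number by 0.08 ± 0.04 on the log2 scale (SE, edgeR adjusted p = 0.75). nhr-80, which promotes fatty acid desaturase expression, had 6.42, 7.01, 9.28 and 8.66 CPM with UA and 6.60, 5.96, 8.87 and 8.41 CPM in control libraries. In both genes the groups overlapped, and for nhr-80 the replicate sets differed more than the conditions. nhr-62, which takes part in the response to dietary restriction, had 4.30, 3.64, 3.17 and 3.17 CPM with UA and 3.44, 2.87, 2.46 and 2.31 CPM in control libraries. It was higher with UA in all 4 numbers and missed the threshold (log2 fold change 0.37 ± 0.18, edgeR adjusted p = 0.717), which it passed with the block. nhr-13, nhr-64 and nhr-76 had log2 fold changes of 0.01, 0.09 and -0.13.

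The receptors of propionate and methionine metabolism held 2 of the 3 calls. nhr-68, which acts after nhr-10 in switching on the B12-independent propionate shunt, had 18.6, 18.2, 18.3 and 20.3 CPM with UA and 14.5, 11.2, 16.5 and 18.4 CPM in control libraries. The UA libraries were close together and control replicate 4 reached into their range, for a log2 fold change of 0.32 ± 0.14 (SE, edgeR adjusted p = 0.676). nhr-114, which responds to a low methionine cycle and protects the germline on a B12-poor diet, had 9.36, 9.27, 13.5 and 13.1 CPM with UA and 6.0, 5.41, 8.84 and 10.7 CPM in control libraries. Replicates 3 and 4 were the higher in both conditions, and within each set both UA libraries were above both control libraries. Its log2 fold change was 0.55 ± 0.23 (SE, edgeR adjusted p = 0.649, and 0.0682 with the block). nhr-10, the first receptor of the shunt, spanned 23.6 to 27.7 CPM with UA and 23.8 to 26.5 CPM in control libraries and was not called.

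Of the 7 receptors of the response to toxins, pathogens, iron and hypoxia, 1 rose, again nhr-8, and the median log2 fold change was 0.14. nhr-86, which takes part in intestinal immunity and senses a bacterial phenazine, had 50.3, 50.1, 45.8 and 43.7 CPM with UA and 52.2, 56.9, 47.6 and 45.5 CPM in control libraries. It was slightly lower with UA in each number, by 0.09 ± 0.08 on the log2 scale (SE, edgeR adjusted p = 0.873). nhr-45, which with nhr-179 drives a detoxification response to mitochondrial dysfunction, had 7.74, 7.75, 11.4 and 12.4 CPM with UA and 7.32, 6.23, 8.77 and 9.30 CPM in control libraries. UA was the higher in all 4 numbers, and the log2 fold change of 0.31 ± 0.19 passed the threshold with the block and not without it (edgeR adjusted p = 0.81). nhr-179 itself was under 1 CPM in every library. nhr-176, a receptor for the anthelmintic thiabendazole, nhr-14, which limits iron uptake, and nhr-57, a target of the hypoxia factor HIF-1, had log2 fold changes of 0.24, 0.14 and -0.15.

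**Figure D3:**
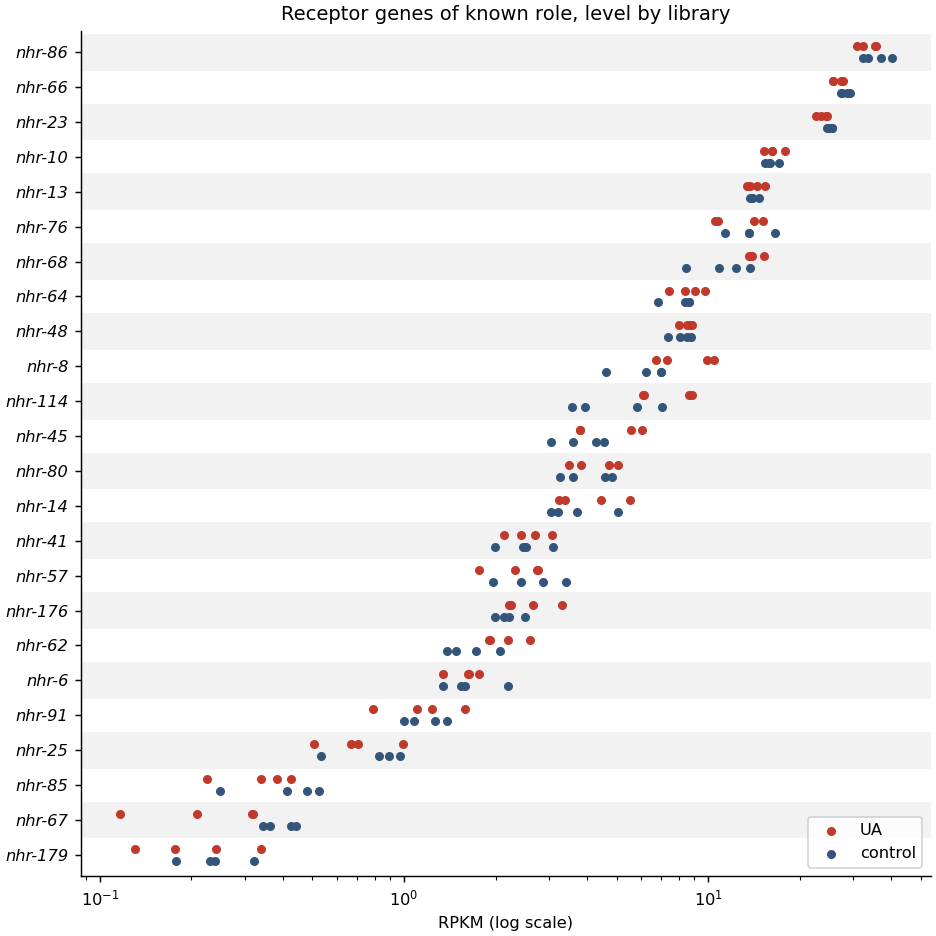
Levels of the 24 receptor genes of the role lists that were tested. Each row is a gene, each point is 1 library, UA in red above control in blue, with the level per kilobase of exon (RPKM) on a log scale. Levels spread from nhr-179 and nhr-67 under 1 RPKM to nhr-86 at 34.7 RPKM, and the difference between conditions within a gene is small beside the difference between genes.

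Genes that work with these receptors, in lists drawn up with earlier results of these data known, were read from the same fit. They were the receptors without an nhr name and the co-regulators, and published target genes of the receptors above, and 23 of them were tested, with 3 called, where 5.67% of all genes tested were called. daf-12, the receptor of the dauer decision and of reproductive growth, had 8.67, 9.32, 13.5 and 11.5 CPM with UA and 7.88, 8.85, 10.6 and 11.2 CPM in control libraries, not called. sex-1, the Mediator subunit mdt-15 (a partner of receptors in lipid metabolism), the corepressor din-1 and the coactivator cbp-1 were not called either, with log2 fold changes between -0.10 and 0.04. The receptor genes unc-55, fax-1 and odr-7 were too low to be tested.

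Among the target genes, the stearoyl-CoA desaturase fat-7 rose, with 46.1, 42.8, 30.5 and 38.0 CPM with UA and 30.0, 30.7, 25.2 and 21.5 CPM in control libraries. The palmitoyl-CoA desaturase fat-5 rose as well, with 72.4, 69.2, 56.1 and 62.6 CPM with UA and 53.8, 57.6, 47.9 and 50.0 CPM in control libraries. Their log2 fold changes were 0.55 and 0.31 (edgeR adjusted p = 0.314 and 0.333), and with the block their adjusted p-values were 0.0328 and 0.031. Without UA replicate 1 the log2 fold change of fat-5 was 0.26, just under the fold threshold. fat-6, the other stearoyl-CoA desaturase, was not called, at 0.11 on the log2 scale.

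The infection response gene irg-4, an nhr-86 target, fell. It had 0.865, 0.969, 3.70 and 3.69 CPM with UA and 9.07, 6.09, 12.7 and 21.1 CPM in control libraries, a log2 fold change of -2.41 ± 0.54 (SE, edgeR adjusted p = 0.221, and 0.0038 with the block). Every UA library was below every control library. Of the other 5 targets of toxin, pathogen and iron responses, none was called.

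The 4 propionate shunt genes gave no call without the block. acdh-1, the acyl-CoA dehydrogenase that opens the shunt, had 212, 217, 352 and 372 CPM with UA and 151, 141, 285 and 345 CPM in control libraries, with replicates 3 and 4 high in both conditions. Its log2 fold change was 0.32 ± 0.30 (SE, edgeR adjusted p = 0.89), and it was called with the block (adjusted p = 0.0781), which made 4 of the 23 related genes. The 5 methionine cycle genes were not called in either fit, with log2 fold changes between -0.04 and 0.19.

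Because many receptors act in the intestine, its markers were read beside them. Of the 5 intestinal markers 1 rose, the GATA factor elt-2, with 8.56, 9.87, 8.70 and 6.91 CPM with UA and 4.46, 4.73, 6.55 and 6.54 CPM in control libraries, a log2 fold change of 0.61 (edgeR adjusted p = 0.343). The summed level of the 5 markers overlapped, at 40289 to 51402 CPM with UA and 32735 to 50980 CPM in control libraries. Of the other lists, 0 of 5 embryo markers tested, 0 of 6 oocyte, 0 of 4 muscle and 0 of 6 neuron markers were called, 1 of 3 hypodermis and cuticle markers fell (col-19, log2 fold change -0.54, joined by dpy-7 at -0.46 with the block), and 1 of 2 sperm markers rose (spe-11, under 1 CPM in every library). In replicates 1 and 2 and in replicates 3 and 4 alone, elt-2 changed by 1.01 and 0.25 on the log2 scale. For col-19 these values were -1.03 and -0.10, for dpy-7 -0.42 and -0.59, and for spe-11 1.63 and 2.89. With 1 library left out, col-19 was called in 4 of 8 fits. The part of these tissues in the receptor response was not tested.

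Receptor genes are unevenly spread over the genome, and chromosome V carried 64.4% of the 177. Of its receptor genes tested, 21 rose and 1 fell, 18.6% rising against 6.69% of the 2690 genes tested on that chromosome, with a median log2 fold change of 0.20 against 0.02. Off chromosome V, 3 of 63 receptor genes rose, nhr-16 on II, nhr-8 on IV and nhr-35 on X. That share, 4.76%, was near the 3.49% of all genes tested off chromosome V, and the median there was 0.06 against -0.006.

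The share that rose varied with level, as it did over all genes. Of the receptor genes with a mean of 1 to under 5 CPM, 14 of 86 rose, 16.3% against 7.11% of all genes in that range. From 5 to under 20 CPM 6 of 41 rose, 14.6% against 7.35%, and under 1 CPM 4 of 35 rose and 1 fell, with 11.4% rising against 3.59%. At 20 CPM and over none of 14 was called, against 1.71% rising over all genes, and the median log2 fold change was -0.02 for the receptor genes and for all genes alike. Within chromosome V and the range of 1 to under 5 CPM, 13 of 64 receptor genes rose, 20.3% against 10.1% of the 691 genes there.

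**Figure D4:**
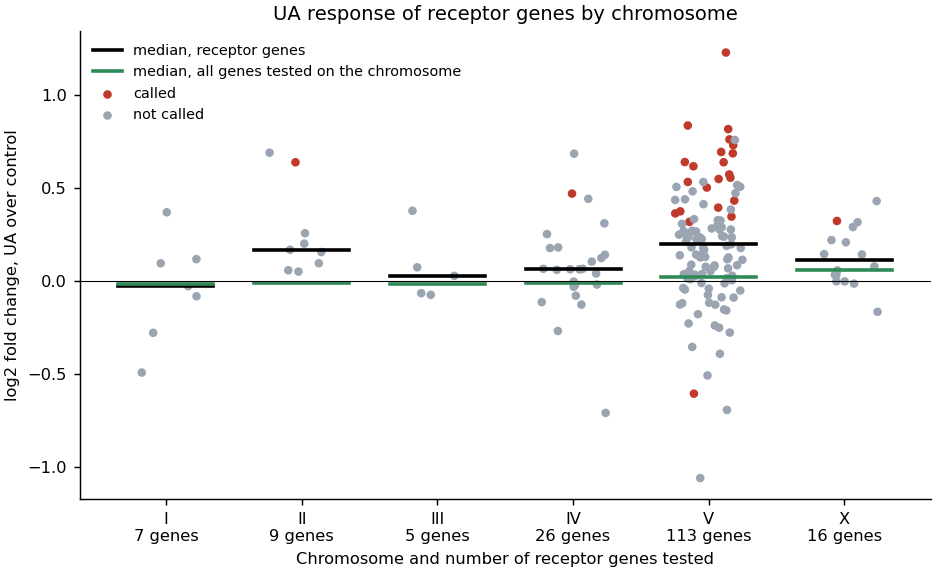
UA response of the receptor genes by chromosome. Each point is a gene, with its log2 fold change of UA over control on the vertical axis and red marking the genes called; black bars are the medians of the receptor genes and green bars the medians of all genes tested on that chromosome. On V the black bar stands at 0.20 and the green bar at 0.02, and 22 of the 25 called genes lie there.

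Many receptor genes sit side by side. Chaining receptor genes less than 10000 bases apart gave 21 clusters, 17 of them on V, that held 88 of the receptor genes tested, with 88 outside them. Within clusters 17 genes rose, 19.3%, and outside them 7 rose, 7.95%, against 4.12% of all genes tested. On chromosome V alone the shares were 21.1% of 76 genes within clusters and 13.5% of 37 outside, against 6.69% of all genes tested on V.

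In 5 clusters more than 1 gene rose. nhr-231 and nhr-170 are neighbours at 18790958 to 18800826 of chromosome V, form a cluster of 2 and both rose. nhr-275 and nhr-228 belong to a cluster of 9 at 2257420 to 2296977, in which 8 genes had a log2 fold change above 0 and the median was 0.43. nhr-208 and nhr-153 rose among 7 genes at 12092006 to 12109313, where the log2 fold changes ran from -0.69 to 0.81.

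nhr-195 and nhr-143 rose among 5 genes at 8961878 to 8977465, and nhr-130 and nhr-211 among the 12 genes of the largest cluster, at 451451 to 497297. A cluster could also hold a single change: nhr-178 stood among 7 genes whose median was -0.04 and whose lowest was -0.13. Clustered genes can be close in sequence, and how fragments that match more than 1 gene were counted is not given in the sources used here, so values of close copies are uncertain. Of the receptor genes tested, 44 overlap another gene on exons and 34 overlap a gene of the other strand, 5 of the risers among them.

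The UA effect was also read separately in the 2 replicate sets. In replicates 1 and 2 alone 36 receptor genes were called higher, 20.5% against 7.05% of all genes, and 3 lower, 1.7% against 4.73%. There 6 passed an adjusted p under 0.05 (edgeR), nhr-8, nhr-130, nhr-132, nhr-114, nhr-232 and nhr-68, which is 3.41% against 3.98% of all genes. In replicates 3 and 4 alone 8 were called higher, 4.55% against 3.88% of all genes, and 2 lower, 1.14% against 1.66%. The shares of receptor genes called in this set were thus near those of all genes. None passed an adjusted p under 0.05 there (edgeR), against 0.19% of all genes. In replicates 1 and 2 alone, with 2 libraries against 2, the UA values lay above the control values for 80 receptor genes and below them for 21, against 24.5% and 23.4% of all genes. In replicates 3 and 4 alone they lay above for 57 and below for 14, against 20% and 18.3% of all genes. The log2 fold change lay above 0 in 129 of the receptor genes tested in the first set, 73.3%, and in 127 in the second, 72.2%. The share of all genes above 0 was not counted within each set, and over all 8 libraries it was 48.9%.

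All 25 genes called over the 8 libraries had the same sign in both sets, which these libraries helped to select. Of the 24 risers 18 were over 1.2-fold higher in both sets, a count that the same selection favours. Among the risers 17 had the larger change in replicates 1 and 2. nhr-178 had log2 fold changes of 1.13 in replicates 1 and 2 and 1.36 in replicates 3 and 4, whereas nhr-132 had 1.06 and 0.37.

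The difference in UA effect between the sets was tested as an interaction. It reached an unadjusted p under 0.05 for 12 receptor genes, 6.82% against 8.55% of all genes, and by edgeR an adjusted p under 0.05 for none, against 0.0802% of all genes. The lowest unadjusted p among the receptor genes was that of nhr-106, which was picked after its values were seen. It had 3.42, 2.95, 2.12 and 2.08 CPM with UA and 1.91, 1.41, 2.99 and 2.40 CPM in control libraries, higher with UA in replicates 1 and 2 and lower in replicates 3 and 4 (edgeR interaction, adjusted p = 0.237). nhr-57 followed the same course, with 4.28, 4.29, 3.61 and 2.74 CPM with UA and 3.07, 3.77, 5.30 and 4.47 CPM in control libraries (edgeR interaction, adjusted p = 0.361). Neither difference passed the correction.

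**Figure D5:**
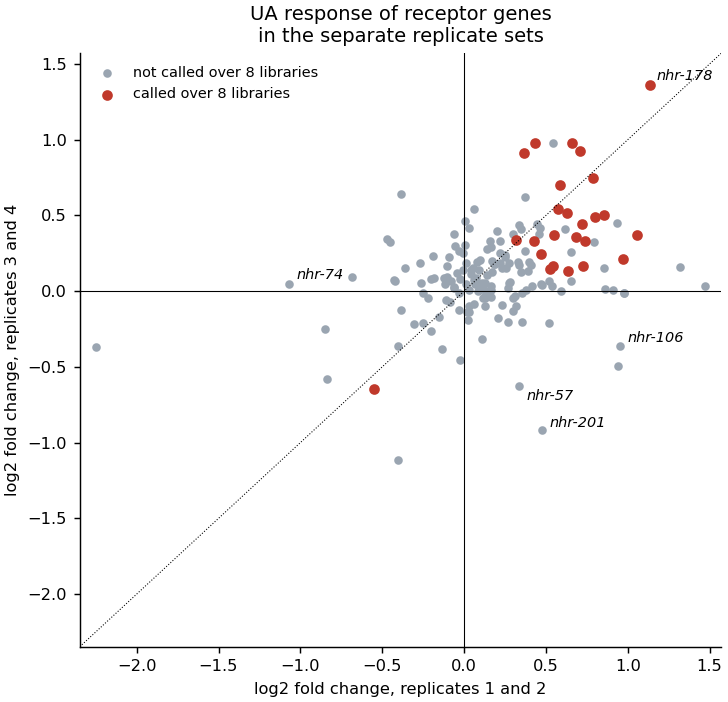
UA response of the receptor genes in the separate replicate sets. Each point is a gene, with the log2 fold change of UA over control in replicates 1 and 2 on the horizontal axis and in replicates 3 and 4 on the vertical axis, red for the 25 genes called over all 8 libraries, and the dotted line marks equal change. The 24 red points at upper right and the 1 at lower left have the same sign in both sets, and nhr-106, nhr-57 and nhr-201 lie at lower right.

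Apart from UA, the replicate sets themselves differed in 19 receptor genes at an adjusted p under 0.05 (edgeR), 10.8% against 14.3% of all genes, with 14 higher in replicates 3 and 4 and 5 lower. nhr-114 was among the 14, at a log2 difference of 0.64 of replicates 3 and 4 over replicates 1 and 2, and nhr-8 among the 5, at -0.45. For both genes this difference was about as large as the UA effect.

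The 105 nhr genes under the count minimum were near the limit of detection in these animals. Of them 23 had no count in any library and 62 lie on chromosome V. Their summed counts were 175, 180, 226 and 221 in the UA libraries and 194, 167, 186 and 254 in the control libraries, which overlap, so that no difference was detectable at this depth. Just inside the minimum, nhr-101, the member that was not tested, had 11, 5, 8 and 8 counts with UA and 3, 12, 10 and 13 counts in control libraries. Just outside it, nhr-150 had 2, 15, 4 and 7 counts with UA and 10, 1, 7 and 10 counts in control libraries. The 5 pseudogenes tested, nhr-83, nhr-151, nhr-144, nhr-220 and nhr-194, were not called.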

How the data were processed

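RNA was sequenced from whole animals in 8 libraries, 4 UA and 4 control, and all 8 were used. The authors aligned filtered reads to WBcel235 with HISAT (HISAT2 in the submitters' processing notes) and counted mapped fragments per RefSeq gene with featureCounts 1.6.2. The deposited values are counts, not normalized, and are labelled as read counts. Some genes, among them irg-4, elt-2 and cyp-35D1, had even counts in all 8 libraries. Whether reads or fragments were counted is therefore not settled, and the number of fragments may be below these counts. The libraries were stranded by the methods, and the use of strand in the counting is not stated. Symbols came from the RefSeq gene table, with 46925 of 46928 genes matched. The members and lists were chosen with earlier results of these data known, and the genes named are every called receptor gene, the 10 highest per kilobase, and the role and related lists.

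Genes kept by filterByExpr (13720) were scaled by TMM and compared by quasi-likelihood in edgeR 4.0.16 (R 4.3.3) on the condition alone. The median receptor gene had a mean of 125 counts, and the biological coefficient of variation was 0.16, so the spread between populations and, for genes of few counts, depth limited precision. RPKM was CPM over the exon length of the deposited table. Libraries of 1 condition differed by 7.08 to 53.5 in chi-square per degree of freedom, so none duplicated another. Same-numbered libraries deviated together from their condition means (correlations across genes 0.31, 0.246, 0.191 and 0.353 for numbers 1 to 4), but so did UA and control libraries of different number within a replicate set (0.15 to 0.333), while those of different sets had -0.324 to -0.0848. The correlations thus show the sets as much as the numbers, and the labels do not state a pairing. The replicate block was fitted as an alternative beside DESeq2 1.42.0, RLE scaling, other filters, single libraries left out and each replicate set alone. The edgeR fit on the condition alone was tested at an adjusted p under 0.05 on simulated counts. These held a condition effect and no replicate sets. The calls at an unadjusted p, the block and the interaction were not tested in this way. Tables and plots were made in Python 3.11.15 with pandas 2.3.3 and matplotlib 3.10.9. Reads were not analysed here.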

Additional observations from a re-analysis of the deposited data

Results flagged for a closer look

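In 104 groups of 4 libraries, made of the 52 receptor genes named by rule in both conditions, 4 groups had 1 library far from the other 3, and chance alone gives about 1 in 20. For nhr-64, control replicate 1 had 7.77 CPM, against 9.54 to 9.82 CPM in the other control libraries. For nhr-65, control replicate 4 had 3.84 CPM, against 3.07 to 3.18 CPM in the others. For nhr-134, control replicate 2 had 3.23 CPM, against 4.46 to 4.58 CPM in the others, and without that library nhr-134 was not called, at a log2 fold change of 0.24. For nhr-170, UA replicate 2 had 3.58 CPM, against 2.09 to 2.32 CPM in the other UA libraries, and without it nhr-170 was not called, at 0.47.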

How the results depend on the processing

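The count of 25 receptor genes called was 39 in replicates 1 and 2 alone, 10 in replicates 3 and 4 alone and 0 at an adjusted p under 0.05, and 14 to 32 with 1 library left out, the lowest without UA replicate 2; with RLE scaling, the other filters, DESeq2, the replicate block (28) and the replicate set as a covariate (33) it was within 1.5 times. The share of all genes called is not given for RLE scaling, the other filters, the covariate or most fits with 1 library left out. Whether the counts in those fits are particular to the receptor genes is therefore not known. The 16 genes without overlap became 101 and 71 in the replicate sets alone, where 2 libraries face 2. Of all genes, 24.5% lay above and 23.4% below in replicates 1 and 2 alone, and 20% and 18.3% in replicates 3 and 4 alone. With 1 library left out the count was 18 to 34, the highest without control replicate 4, where 5.86% of all genes lay above and 4.36% below. This count has no value under the block or the covariate. The median log2 fold change of 0.14 lay between 0.11 and 0.19 with 1 library left out. The sign turned in replicates 1 and 2 alone for nhr-6 (0.033), nhr-14 (-0.055) and nhr-57 (0.33), and in replicates 3 and 4 alone for nhr-20 (0.079), nhr-41 (-0.030), nhr-46 (0.022), nhr-71 (0.067), nhr-91 (0.088), nhr-179 (0.072) and nhr-274 (0.030). With 1 library left out it turned for nhr-2 (-0.099 to 0.039), nhr-6 (-0.16 to 0.099), nhr-10 (-0.019 to 0.061), nhr-13 (-0.023 to 0.044), nhr-14 (-0.023 to 0.32), nhr-41 (-0.058 to 0.16), nhr-46 (-0.041 to 0.00074), nhr-71 (-0.052 to 0.026), nhr-80 (-0.021 to 0.17), nhr-91 (-0.18 to 0.15), nhr-179 (-0.40 to 0.059) and nhr-274 (-0.046 to 0.0069). None of these 14 genes was called in the fit of 8 libraries; the cause was not tested. The replicate block ended 2 calls of the named genes and added 3 and changed no other call of them. Of the other settings, DESeq2 ended 3 calls, no filter on low counts 1, replicates 1 and 2 alone 7 and replicates 3 and 4 alone 19, while replicates 3 and 4 alone added nhr-45 as higher and nhr-57 as lower, and the replicate set as a covariate added nhr-45 and nhr-62. The 3 related genes called became 4 with the block, 6 in replicates 1 and 2 alone and 2 to 4 with 1 library left out, settings added for them after the data were seen. Depth limits the genes of few counts.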
